A study of Mus musculus with 8 samples.

Results

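The astrocyte maturation genes are 10 genes that mark successive stages of the astrocyte, followed here in mouse neocortex at postnatal day 5. They were chosen by name: Fabp7, Sox9 and Slc1a3 as genes shared with radial glia and immature astrocytes, and Slc1a2, Aqp4, Aldoc, Aldh1l1, Gja1, Apoe and Gfap as genes of the maturing or mature cell. All 10 had exactly 1 probe set that named a single gene, so all 10 of the 19938 genes measured could be followed and no choice between probe sets was needed. Layers II-IV were cut out by laser from 8 pups, and the total RNA of each pup was hybridised to 1 Affymetrix Mouse Gene 1.0 ST array. The 4 control pups were Bcl6 flox/flox;Nex +/+ and the 4 mutant pups were Bcl6 flox/flox;Nex Cre/+. Both groups therefore carry floxed alleles of Bcl6, which encodes a zinc-finger transcriptional repressor, and the Cre allele at Nex, another name of Neurod6, is present in mutants only. Nex-driven Cre is active in excitatory cortical neurons after their last division, and astrocytes are not the cells in which it is made.

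Cortical astrocytes descend from radial glia, which carry the lipid-binding protein Fabp7, the transcription factor Sox9 and the glutamate transporter Slc1a3 before astrocytes exist. In rodents most cortical astrocytes are generated and spread through the layers in the first weeks after birth. As they mature they gain the main glutamate transporter Slc1a2, the water channel Aqp4, the gap junction protein Gja1 and metabolic enzymes such as Aldoc and Aldh1l1. Gfap, an intermediate filament protein, is abundant in white matter and in reactive astrocytes and sparse in astrocytes of the healthy upper cortex. Its transcription responds to cytokines that act through STAT3. The consensus of STAT factors, TTCNNNGAA, is close to the sequence that BCL6 binds.

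That motif was searched in the promoter windows of the members, since STAT factors and BCL6 share it. RefSeq windows of build GRCm38.p6, running from 250 bases before to 50 bases after each gene start, were used for 8 of the 10 members, 11 windows in all. The motif is its own reverse complement, so both strands were searched at once. It was present in 3 of the 11 windows, against 8.3% of all 32851 windows of that length. These were the windows of Gfap (chr11:102897151-102897450, minus strand), of Slc1a3 (chr15:8710758-8711057, minus strand) and 1 of the windows of Aldoc (chr11:78323948-78324247, plus strand). They are shown 5′ to 3′ because they are the members' windows that hold the motif, with its letters in capitals.
Gfap: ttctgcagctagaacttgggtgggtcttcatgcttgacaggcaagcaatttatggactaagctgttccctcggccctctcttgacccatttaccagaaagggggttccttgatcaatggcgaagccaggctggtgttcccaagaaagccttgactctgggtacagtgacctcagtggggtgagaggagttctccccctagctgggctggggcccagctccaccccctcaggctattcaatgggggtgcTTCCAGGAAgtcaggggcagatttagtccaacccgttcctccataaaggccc
Slc1a3: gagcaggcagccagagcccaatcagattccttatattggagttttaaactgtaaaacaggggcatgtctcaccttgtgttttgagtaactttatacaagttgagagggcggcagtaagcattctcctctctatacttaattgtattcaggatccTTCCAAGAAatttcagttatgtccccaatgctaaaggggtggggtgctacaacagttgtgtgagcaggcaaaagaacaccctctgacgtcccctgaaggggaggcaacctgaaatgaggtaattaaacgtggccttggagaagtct
Aldoc: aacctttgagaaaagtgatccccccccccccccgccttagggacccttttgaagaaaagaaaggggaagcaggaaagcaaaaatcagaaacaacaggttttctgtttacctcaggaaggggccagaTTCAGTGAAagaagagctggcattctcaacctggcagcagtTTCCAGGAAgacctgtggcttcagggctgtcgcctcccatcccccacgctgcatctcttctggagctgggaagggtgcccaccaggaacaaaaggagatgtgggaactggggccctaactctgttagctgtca
The match begins at position -2 from the start in Gfap, at -96 in Slc1a3 and at -124 and -83 in Aldoc. A match describes letters in a window and shows no binding. TGGGAA, the letters bound by the Notch effector RBPJ, stood in 6 of the 11 windows on either strand, against 25.6% of all windows. TTGGC, the core of the sites of the NFI factors that switch on astrocyte genes, stood in 5 of the 11, against 46.7%. Some windows of Apoe overlap each other, so the windows are not independent.

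The array medians lay between 5.54 and 5.59 on the deposited log2 scale. Of the 19938 genes, 13 passed limma's adjusted p threshold of 0.05 in mutants against controls, which is 0.0652%. The Bcl6 probe set read higher in mutants, by 0.37 ± 0.10 (SE, n = 4 per group), but was not among those 13 (limma adjusted p = 0.655). The part of the transcript that its probes read is not stated in the labels, so the value is no check of the deletion or of the labels, and "mutant" means the arrays labelled so. Mutant replicates 1 and 4 stood apart from the other 6 arrays in Xist, the RNA that silences an X chromosome in females, at 9.78 and 9.76 against 2.64 to 3.41. They were also low in Y-linked genes. Eif2s3y read 2.800 and 2.287 against 7.386 to 7.785, and Kdm5d 2.69 and 2.92 against 5.47 to 5.94. Uty read 3.09 and 2.98 against 6.58 to 6.92. The mean of these genes is the Y-linked mean used below. Sex is not in the labels, and by these genes it was not balanced between the groups. Results on the members are therefore also given without those 2 arrays.

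All 10 members were detected above a dark level. Olfactory receptor genes, which the cortex is not expected to use, had a 95th percentile of 4.29 over 1015 genes, and the member nearest to it was Gfap at a mean of 5.25 over the 8 arrays. Levels of different genes come from different probes and are not compared with each other. Markers of excitatory neurons were present as well, with 7 of 7 above that level.

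None of the 10 members was called higher or lower in mutants. In limma 0 of 10 passed the adjusted threshold, against 0.0652% of all genes. An unadjusted p under 0.05 was found for 0 of 10, against 4.91% of all genes. At these shares, 0 of 10 is no result particular to the members. The differences, mutant minus control, ran from -0.11 for Gfap to 0.12 for Aldh1l1 on the log2 scale, with standard errors (SE) of 0.061 to 0.111. The 95% intervals, taken gene by gene, together spanned a ratio of mutant to control from 0.845 for Gfap to 1.22 for Slc1a2, so larger changes of single members lie outside them. Of the 10 differences 9 were positive, whereas 44.6% of all genes were. The count moved with single arrays: it was 4 of 10 without the Xist-high mutant replicates 1 and 4, and 5 of 10 without control replicate 2, mutant replicate 3 or mutant replicate 4. The median over the members was 0.025 with all 8 arrays and -0.013 without those 2, beside -0.0096 and -0.017 over all genes.

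**Figure D1:**
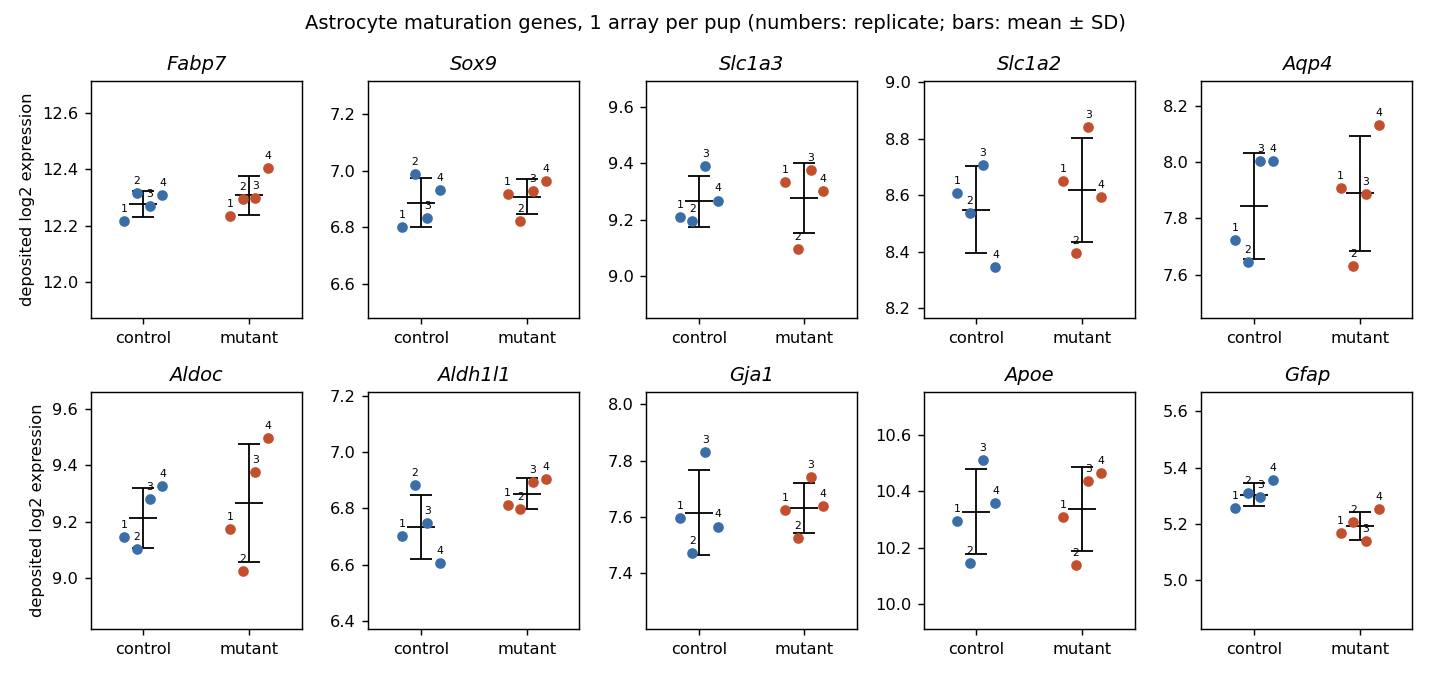
Deposited log2 expression (y axis, the same span in every panel) of the 10 members in 4 control and 4 mutant arrays (x axis), each point 1 pup with its replicate number, and bars for the mean and SD. Control and mutant points overlap in 9 panels, and in Gfap the mutant points lie below the control points by a margin of 0.0023.

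The members shared with radial glia were close in level between the genotypes. Fabp7, the brain lipid-binding protein, gave control values of 12.21, 12.32, 12.27 and 12.31 in replicates 1 to 4, the order used for all genes here, and mutant values of 12.23, 12.29, 12.30 and 12.40. The groups overlapped, with mutant replicate 4 the highest array. The difference was 0.03 ± 0.06 (SE, n = 4 per group; limma adjusted p = 1.00). Fabp7 gave the narrowest interval of these 3 genes, from -0.11 to 0.17.

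Sox9, which is needed to turn neural progenitors towards glia, read 6.80, 6.99, 6.83 and 6.93 in controls and 6.92, 6.82, 6.93 and 6.97 in mutants. Its highest and lowest arrays were both controls, and the difference was 0.02 ± 0.07. Slc1a3, the glutamate transporter GLAST, read 9.21, 9.19, 9.39 and 9.27 in controls and 9.33, 9.10, 9.38 and 9.30 in mutants. Control replicate 3 was its highest array and mutant replicate 2 its lowest, with a difference of 0.01 ± 0.08. In limma both had an adjusted p of 1.00, and without the Xist-high arrays the differences were -0.013 for Sox9 and -0.029 for Slc1a3, and 0.019 for Fabp7.

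The membrane proteins of the maturing astrocyte varied more between pups than between genotypes. Slc1a2, the glutamate transporter GLT-1 that clears most synaptic glutamate, read 8.61, 8.54, 8.71 and 8.34 in controls and 8.65, 8.39, 8.84 and 8.59 in mutants. Control replicate 4 and mutant replicate 2 were low, mutant replicate 3 was high, and the groups overlapped (0.07 ± 0.10). Aqp4, the water channel of astrocyte endfeet, read 7.73, 7.65, 8.002 and 8.003 in controls and 7.91, 7.63, 7.89 and 8.13 in mutants. Both groups held a low and a high array, and the difference was 0.05 ± 0.11, the largest SE among the members. Gja1, the gap junction protein connexin 43, read 7.60, 7.47, 7.83 and 7.57 in controls and 7.62, 7.53, 7.74 and 7.64 in mutants. All 4 mutant values lay inside the control range, with a difference of 0.02 ± 0.08. In limma each of these 3 genes had an adjusted p of 1.00. Without the Xist-high arrays Aqp4 turned to -0.084, while Slc1a2 read 0.069 and Gja1 0.017.

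The metabolic and lipid genes of astrocytes gave no call either. Aldoc, the aldolase of astrocytes, read 9.14, 9.10, 9.28 and 9.32 in controls and 9.17, 9.02, 9.38 and 9.49 in mutants. The mutant group spread wider (SD 0.21 against 0.11, n = 4) and held both the lowest and the highest array, with a difference of 0.05 ± 0.10. Apoe, the lipid carrier that astrocytes secrete, read 10.30, 10.15, 10.51 and 10.36 in controls and 10.31, 10.14, 10.44 and 10.47 in mutants. Apoe had the smallest difference of the 10, at 0.01 ± 0.09, with an interval from -0.19 to 0.21. Without the Xist-high arrays both turned negative, to -0.013 for Aldoc and -0.040 for Apoe.

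Aldh1l1, an enzyme of folate metabolism used as a pan-astrocyte marker, had the largest positive difference. It read 6.70, 6.88, 6.75 and 6.61 in controls and 6.81, 6.80, 6.89 and 6.91 in mutants. Mutant values lay above 3 of the 4 controls, and control replicate 2 fell among them. The difference of 0.12 ± 0.07 (SE) corresponds to 1.08-fold (limma adjusted p = 1.00; exact permutation p = 0.114, two-sided). It was 0.110 without the Xist-high arrays and positive in all 18 alternative settings, from 0.075 to 0.167. The highest of these came without control replicate 2, where the unadjusted p was 0.036 and the adjusted p 0.923 in limma.

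Gfap was the only member with a negative difference and the only 1 of the 10 whose groups did not overlap, a pattern shown by 2.75% of all genes. The controls gave 5.26, 5.31, 5.29 and 5.36 and the mutants 5.17, 5.21, 5.14 and 5.25. All 4 mutants were lower, but the lowest control and the highest mutant differed by 0.0023. The means were 5.30 ± 0.04 (SD, n = 4) and 5.19 ± 0.05, which differ by -0.11 ± 0.06 (SE). Controls thus held 1.08-fold more. The exact permutation p was 0.0286 (two-sided), the smallest that 4 against 4 arrays can give and not adjusted over the 10 members. In limma the unadjusted p was 0.092 and the adjusted p over all genes 1.00. The difference was -0.13 without the Xist-high arrays and negative in all 18 settings, from -0.13 to -0.092. Leaving out arrays could not change this sign, since every mutant lay below every control. Gfap is also the member closest to the dark level, where array differences are compressed.

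**Figure D2:**
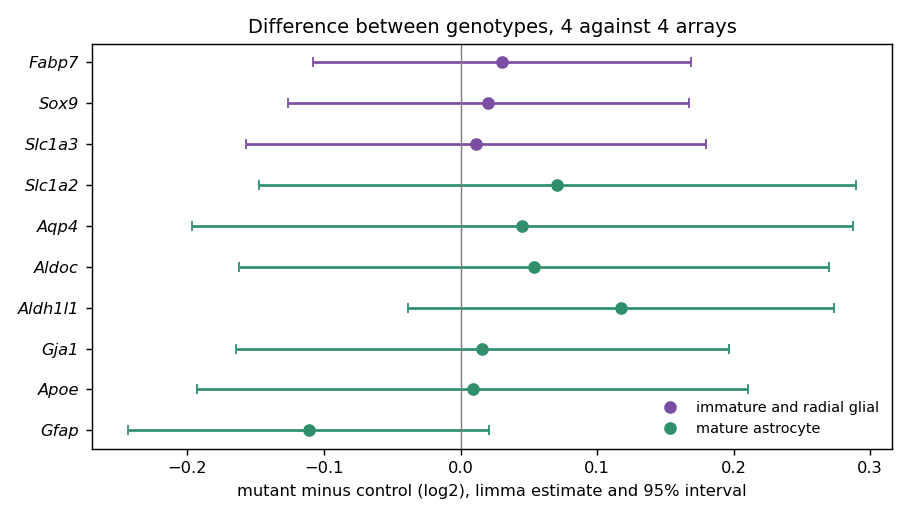
Log2 difference of mutants from controls (x axis) for each member (y axis), with limma's estimate as a point and its 95% interval as a bar, in purple for immature and radial glial genes and green for mature genes. Every interval includes 0, and Gfap at -0.11 and Aldh1l1 at 0.12 lie farthest from it, on opposite sides.

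The balance between mature and immature genes did not differ between the groups by more than the spread of pups. For each array the mean log2 level of the 7 mature members minus that of the 3 immature members was taken, and its mean over the 8 arrays was subtracted. Controls gave 0.028, -0.097, 0.087 and -0.033 and mutants -0.015, -0.056, 0.042 and 0.044 in replicates 1 to 4. Both the lowest and the highest value were controls. The groups differed by 0.008 (mutant minus control) with an SD of 0.079 in controls and 0.048 in mutants. Without the Xist-high arrays the difference was -0.0026.

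For 8 of the 10 members, all but Gfap and Aldh1l1, the SD within each genotype was larger than the difference between genotypes. In mutant replicate 4 all 10 members lay above their own mean over the 8 arrays, in mutant replicate 3 there were 9, and in control replicate 3 there were 7. In control replicate 1 and mutant replicate 2 only 2 members did. Mutant replicate 2 was the lowest array for 4 members, and mutant replicate 4 and control replicate 3 were the highest for 4 and 3. The mean deviation of the 10 members was -0.12 in mutant replicate 2 and 0.10 in mutant replicate 4, both in the same group. Slc1a3, Slc1a2, Aqp4, Aldoc, Gja1 and Apoe all lay below their means in mutant replicate 2 and control replicate 2 and above them in control replicate 3 and mutant replicate 3, Aqp4 in the last by only 0.021. Fabp7, Sox9, Aldh1l1 and Gfap were above their means in control replicate 2, where those 6 were below.

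In RNA from cut-out layers that hold many cell types, fewer astrocytes and less RNA per astrocyte cannot be told apart. Markers of other cells were read on the same arrays. In mutant replicate 2 the mean deviation was -0.17 for 8 endothelial markers, -0.16 for 8 mural and meningeal markers, -0.14 for 7 microglia markers and -0.084 for 7 oligodendrocyte lineage markers. Each of these was the lowest of the 8 arrays. The 7 excitatory neuron markers deviated by -0.040 there and the 3 red blood cell markers by -0.044, neither of them the lowest array. The 8 markers of ependyma and choroid plexus deviated the other way, by 0.049. The mean of the neuron markers ranged from -0.021 to 0.138 in controls and from -0.129 to 0.001 in mutants, with the lowest value in mutant replicate 4, where the members were highest. Of the 7 differences 6 were negative, with a median of -0.026. The list includes Neurod6, the Cre locus itself, at -0.39 ± 0.09 (SE; limma adjusted p = 0.535). Its lower level in mutants is thus part of the neuron mean, which was not taken without it. Endothelial markers ranged from -0.102 to 0.026 in controls and -0.168 to 0.125 in mutants. Of the 8 markers of ependyma and choroid plexus, 3 were above the dark level. The part of other cell types in the astrocyte values was not tested.

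**Figure D3:**
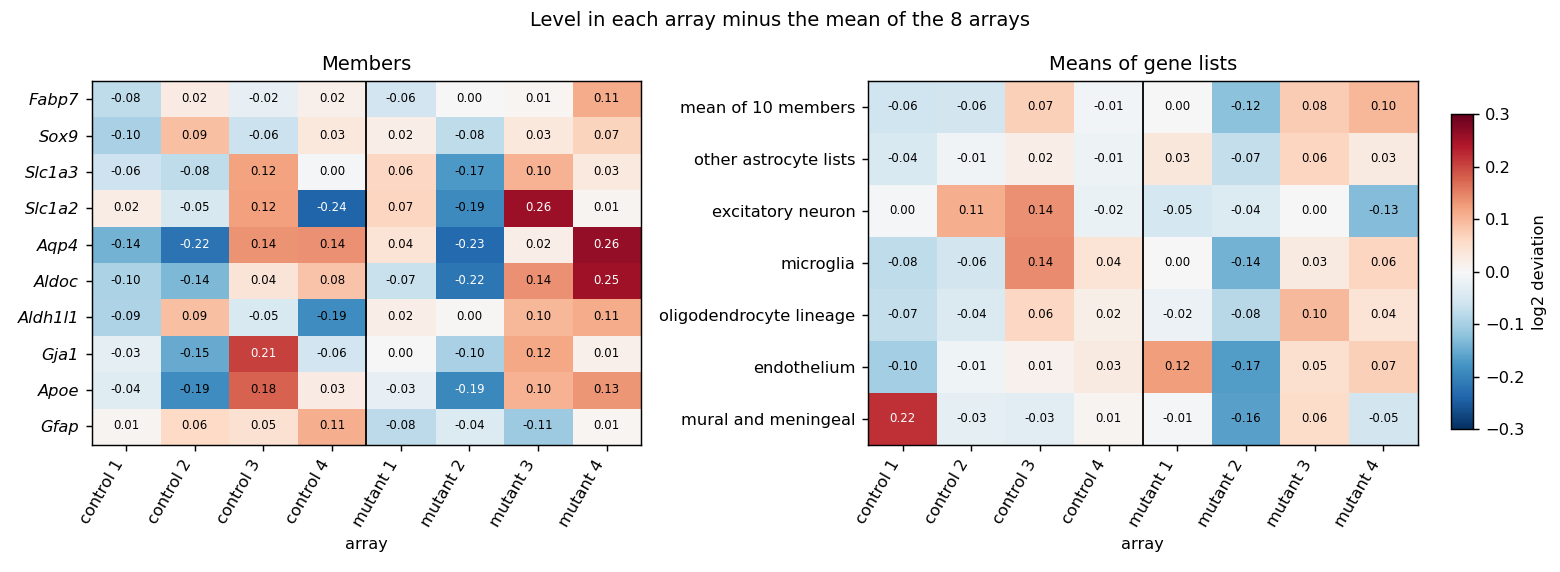
Level in each array (x axis) minus the mean of the 8 arrays, in log2 units as colour and number, for the 10 members (left) and for the means of the members, of the other astrocyte lists and of marker lists (right), with a line between controls and mutants. Mutant replicate 2 is low for most members (mean -0.12) and for endothelial, mural and microglia markers, and mutant replicate 4 is high for the members (mean 0.10).

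The genes that tracked the members' mean most closely lay outside the astrocyte lists. After subtraction of each genotype's mean, the 5 non-member genes with the highest Pearson r over the 8 arrays were Rbbp5, Spryd3, Trpc4ap, Bin1 and Chrna9, with r from 0.972 to 0.990. Rbbp5 is a subunit of histone methyltransferase complexes, Bin1 a membrane-bending protein and Chrna9 a nicotinic receptor subunit. They are the extreme of 19938 genes over 8 arrays and are given as a description. Among the members themselves, which contribute to that mean, r was 0.932 for Apoe, 0.909 for Aldoc and 0.895 for Slc1a3. It was 0.0813 for Gfap and 0.245 for Aldh1l1.

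No gene of the wider astrocyte programme passed the threshold. In 8 further lists, 103 genes were measured, and 0 rose and 0 fell in limma, against 0.0652% of all genes called. At that share, 0 calls among 103 is no result particular to these genes. Of these genes 4 had an unadjusted p under 0.05, a share below the 4.91% of all genes. Differences were positive for 68 of the 103, against 44.6% of all genes, and for 62 without the Xist-high arrays. Leaving out 1 array gave 56 (without control replicate 1) to 81 (without mutant replicate 2). The median was 0.024, and 0.010 without the Xist-high arrays. The counts per list below are from all 8 arrays only, and the share over all genes is the same 44.6%.

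Genes that handle glutamate, ions and water had the highest median of these lists, at 0.076 over 12 genes, with 10 of 12 differences positive. Kcnj10, the inward rectifier that buffers potassium, read 6.18, 6.28, 6.28 and 6.21 in controls and 6.40, 6.33, 6.46 and 6.28 in mutants. It was the 1 gene of the 103 with all mutants above all controls, a pattern that 0.963% of all genes showed, and the nearest values, 6.2848 and 6.2842, almost met. The difference was 0.13 ± 0.06 (SE; limma adjusted p = 1.00). Slc38a3, which exports glutamine, read 0.16 ± 0.08 higher in mutants, and Slc7a10, a serine and glycine transporter, 0.11 ± 0.06 higher. None of these passed the adjusted threshold in limma.

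Radial glial and immature genes were positive in 11 of 15 cases, with a median of 0.026. Pla2g7, a secreted phospholipase, read 0.14 ± 0.11 (SE) and Mfge8, a secreted bridge for phagocytosis, 0.11 ± 0.08. Pax6, the transcription factor of dorsal radial glia, read -0.10 ± 0.08. Gliogenic transcription factors were positive in 9 of 12 cases, with a median of 0.032. In limma 2 of the 12 had an unadjusted p under 0.05, against 4.91% of all genes. These were Hey1, an effector of Notch (0.25 ± 0.09), and Sox8, a close relative of Sox9 (0.14 ± 0.07). Their adjusted p in limma was 0.9315 and 0.9995. Zbtb20, a zinc-finger factor that promotes astrocyte formation, read 0.16 ± 0.12.

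Lipid and metabolic genes had a median of 0.044 and 10 of 13 positive differences. Abca1, which loads lipid onto Apoe, read 0.09 ± 0.07 (SE), Pygb, a glycogen phosphorylase, 0.08 ± 0.07, and Acsbg1, an acyl-CoA synthetase, 0.07 ± 0.07. Secreted factors had a median of 0.026 and 11 of 14 positive, led by Bcan, the proteoglycan brevican, at 0.14 ± 0.09. Gpc4, a glypican that promotes synapse formation, read 0.10 ± 0.10, and Sparc, a matrix protein, 0.06 ± 0.07. The remaining defining markers split evenly, with 7 of 14 positive and a median of 0.00068. Fgfr3, a growth factor receptor of astrocytes, read 0.12 ± 0.07, while Slc13a5, a citrate transporter, read -0.14 ± 0.07 and Slc39a12, a zinc transporter whose control mean of 3.87 lay below the dark level of 4.29, -0.21 ± 0.11.

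The cytokine pathway through which Gfap is switched on was examined beside Gfap. Its 11 genes had a median of 0.0036, with 6 positive differences. Lifr, the receptor of leukaemia inhibitory factor, read 7.39, 7.58, 7.42 and 7.22 in controls and 7.79, 7.61, 7.70 and 7.54 in mutants. Of the 4 mutants 3 lay above every control, with a difference of 0.25 ± 0.09 (SE; limma unadjusted p = 0.012, adjusted p = 0.907). Stat3, the transcription factor downstream, read -0.06 ± 0.07, and Ctf1, a ligand of the family whose control mean of 3.85 lay below the dark level, 0.08 ± 0.10. Reactive astrocyte genes had a median of -0.018, with 4 of 12 positive, and 7 of the 12 were above the dark level. Steap4, a metalloreductase, read 0.29 ± 0.13 (SE), Tgm1, a transglutaminase, -0.22 ± 0.10, and Cxcl10, a chemokine, -0.12 ± 0.06. Cxcl10 was lower in every mutant than in every control, as were 357 of all 19938 genes. Its control mean of 3.57 and that of Steap4, 3.63, also lay below the dark level.

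**Figure D4:**
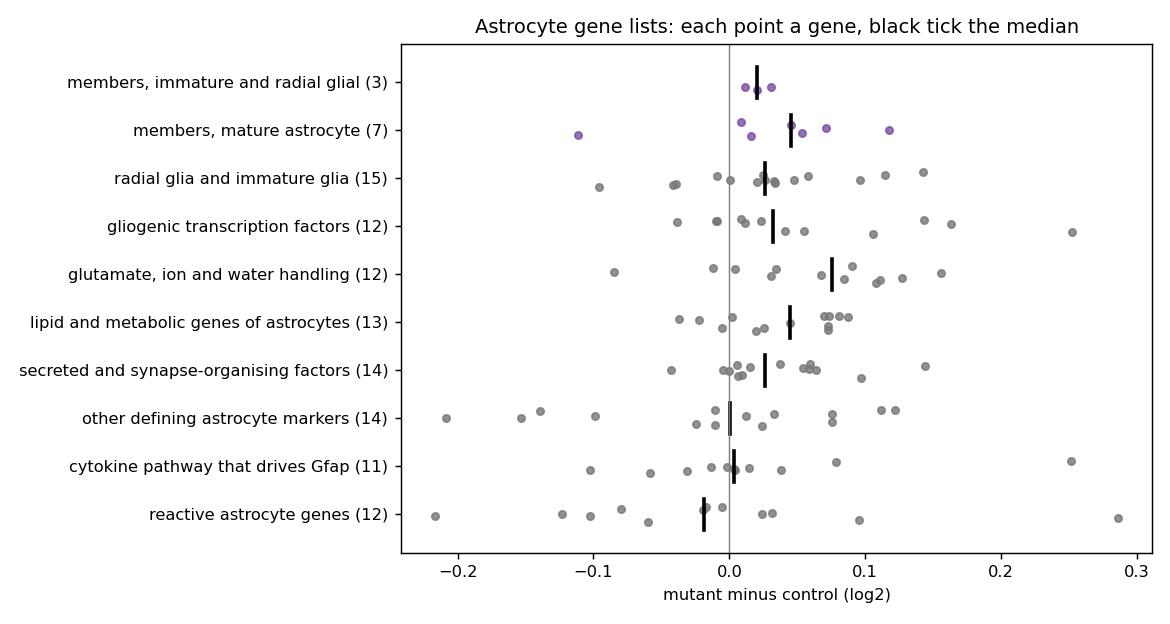
Log2 difference of mutants from controls (x axis) of every measured gene in the member groups (purple) and in 8 other astrocyte lists (grey), by list (y axis, number of genes in parentheses), with a black tick for the median. Medians lie between -0.018 for reactive genes and 0.076 for glutamate, ion and water handling. No gene shown passed limma's adjusted threshold, which 0.0652% of all genes did.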

How the data were processed

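The authors deposited log2 values of 35556 probe sets on each of 8 arrays. Per the series design text they came from BRB-ArrayTools; the sources used here do not give the background correction, normalization or summarization. Probe sets were named through the platform annotation and the GRCm38.p6 gene table. Those naming 1 gene (21789) were kept, and the brightest was used per gene, which left 19938 genes. The files hold no detection calls, and the number of arrays limits the precision.

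The genotypes were compared by a two-sided moderated test in limma 3.58.1 (R 4.3.3), with no other term in the model, fitted on all genes, with Benjamini-Hochberg adjustment over all of them and no filter on dim genes. Single values were also tested by exact permutation. Members and lists were chosen with earlier results of these data known. All members, up to 3 genes of smallest p per other list, and the 5 genes most like the members' mean were named. The fit was tested on simulated data with 200 changed genes. It recovered 75% of them at a step of 0.5 log2 and 98.6% at a step of 1. The 200 changed genes exceed the 13 called here, and Benjamini-Hochberg adjustment is less strict when more genes change. Recovery in the real data may therefore be lower. Steps as small as the members' differences were not simulated. The replicate numbers were not treated as pairs: same-numbered arrays correlated by -0.012, 0.029, 0.040 and 0.159 in their deviations from the group means, and the labels do not say that pups were paired. Pups are separate animals, per the design text.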

Additional observations from a re-analysis of the deposited data

Results flagged for a closer look

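No array stood apart from the rest of its group in any of the 10 members by Dixon's criterion for groups of 4. Among all 74 groups checked, which include the other named genes, 6 arrays did, where chance gives about 1 in 20. In control replicate 3, Sox8 read 6.07 against 5.91 to 5.93 in the other controls, Pygb 8.55 against 8.49 to 8.50, and Stat3 6.97 against 6.76 to 6.78. In mutant replicate 2, Stat3 read 6.67 against 6.79 to 6.80. In mutant replicate 1, Steap4 read 4.21 against 3.81 to 3.84. In control replicate 2, Neurod6 read 9.41 against 9.15 to 9.17.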

How the results depend on the processing

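In 18 alternative settings 0 of the 10 members passed limma's adjusted threshold, which few of all genes passed. At most 1 member had an unadjusted p under 0.05 in limma (Aldh1l1, without control replicate 2). Gfap stayed negative and Aldh1l1 positive in all 18, while each of the other 8 members changed sign in 1 to 6 settings. Some settings could not change a sign. A trend in the variance prior, the filter on dim genes, the replicate block and averaging of probe sets leave a member's difference as it was. Leaving out arrays could not turn Gfap, whose groups do not overlap. The number of positive members was 9 under every scaling, 4 with the Y-linked mean as a covariate, 4 without both Xist-high arrays, and 5 to 9 in the fits that left out 1 array. It was 5 in the fits without control replicate 2, mutant replicate 3 or mutant replicate 4. Leaving out single arrays moved the members' median from 0.000051, when mutant replicate 4 was left out, to 0.073, when mutant replicate 2 was, and the mature minus immature difference from -0.023 to 0.038.

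Over all genes, 10 were called higher and 3 lower in limma. The lower calls were 1 after quantile normalization, 1 after median centring and 1 after cyclic loess. With the replicate block 4 were higher and 1 lower. The members' median was 0.025 there by construction, since each replicate number holds 1 control and 1 mutant. With the Y-linked covariate 3 were higher and 1 lower, and without both Xist-high arrays 2 and 0, where the unadjusted p was under 0.05 for 562 lower genes. Leaving out 1 array gave 3 to 9 higher and 0 to 4 lower. In the 5 of these fits with 0 lower, limma's unadjusted p was under 0.05 for 569 to 722 lower genes. The causes were not tested.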
